A study of Caenorhabditis elegans with 2 samples.

Results

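The X chromosome of Caenorhabditis elegans held 416 of the 1891 reproducible peaks mapped for the tagged homeodomain protein CEH-8. They were chosen by chromosome alone, as every X entry of the authors' IDR list, named for the irreproducible discovery rate, a measure of how alike peaks rank between replicates. By signal that list equalled the top of the pooled list, so a single X peak in it need not be strong in both replicates. The assay was chromatin immunoprecipitation with an anti-GFP antibody followed by sequencing, in 2 biological replicates of 1 group. All animals were whole mixed-sex L1 larvae at 6 hours, starved after bleaching, of strain OP760, which carries the unc-119(tm4063) mutation and the transgene wgIs760, a copy of ceh-8 with a TY1::EGFP::3xFLAG tag together with unc-119(+). No untagged strain was among the samples analysed here and whole larvae were used, so the values do not say which cells a peak comes from. The X peaks made up 22% of the list, on 17.7% of the nuclear sequence, and the 1475 peaks of the 5 autosomes serve as the comparison. Read depth is unknown from these files, and a peak's signal is the authors' own value, used here to rank peaks.

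CEH-8 belongs to the paired-like homeodomain proteins, which bind short DNA sequences built around TAAT, and its gene is a marker of the RIA interneurons. The X chromosome differs from the autosomes in its control. In hermaphrodites, which have a pair of X chromosomes, the dosage compensation complex, a condensin-like machine, loads onto X and lowers its transcription. It is recruited at sites on X that carry a motif known as MEX, whose core reads GCGCAGGG.

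That core was found at many of the strongest X peaks. It lay wholly within 50 bp of the summit at 11 of 416 X peaks, at 9 of the 20 strongest by signal and at 2 of the other 396. These are shown because, of the motifs compared between X and autosomal summits, the core had the lowest p-value. The stretches below are all occurrences within 200 bp of the summits of the 20 strongest X peaks that overlap no annotated exon, on the strand that reads the core forward, with the core in capitals. This set was chosen after its values were seen. Sequences and coordinates are from the reference assembly WBcel235, which is the files' ce11, and each is named by the gene with the nearest start.
W02H3.3, chrX:11094113-11094144, minus strand: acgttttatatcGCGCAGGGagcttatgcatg
W02H3.3, chrX:11094214-11094245, minus strand: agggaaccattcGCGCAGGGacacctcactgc
nspc-17, chrX:14525888-14525919, minus strand: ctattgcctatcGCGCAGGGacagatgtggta
F20B6.9, chrX:4209254-4209285, minus strand: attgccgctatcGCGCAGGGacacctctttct
cest-16, chrX:6296536-6296567, plus strand: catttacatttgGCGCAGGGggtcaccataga
cest-16, chrX:6296564-6296595, plus strand: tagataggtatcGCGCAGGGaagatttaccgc
Y41G9A.17, chrX:2997111-2997142, minus strand: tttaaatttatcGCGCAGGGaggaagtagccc
F22H10.2, chrX:16682160-16682191, minus strand: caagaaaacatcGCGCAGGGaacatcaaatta
xol-1, chrX:8036389-8036420, minus strand: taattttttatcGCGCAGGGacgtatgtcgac
xol-1, chrX:8036423-8036454, plus strand: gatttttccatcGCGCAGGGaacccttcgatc
gtr-1, chrX:806662-806693, plus strand: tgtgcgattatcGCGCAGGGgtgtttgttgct
gtr-1, chrX:806738-806769, plus strand: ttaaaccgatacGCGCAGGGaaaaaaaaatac
ins-39, chrX:1345044-1345075, plus strand: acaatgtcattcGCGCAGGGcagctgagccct
col-185, chrX:13514546-13514577, plus strand: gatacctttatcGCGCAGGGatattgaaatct

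In most of these stretches the core was preceded by a C, and the 9-letter form CGCGCAGGG lay at 9 X summits. The W02H3.3, cest-16, xol-1 and gtr-1 peaks each had a pair of occurrences.

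The 101-base windows of the 6 strongest X peaks that were found in both replicates and overlap no exon are given next, so that the base context of a summit can be read. Capitals mark matches, on either strand, to GCGCAGGG, TAATTG or GAGAGA only. Other motifs searched are not marked, such as CAGCTG in the nspc-17 window.
W02H3.3, chrX:11094132-11094232, plus strand: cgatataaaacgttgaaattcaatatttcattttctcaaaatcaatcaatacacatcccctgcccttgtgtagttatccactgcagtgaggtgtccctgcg
nspc-17, chrX:14525854-14525954, plus strand: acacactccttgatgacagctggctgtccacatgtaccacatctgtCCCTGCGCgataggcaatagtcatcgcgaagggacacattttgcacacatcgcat
F20B6.9, chrX:4209237-4209337, plus strand: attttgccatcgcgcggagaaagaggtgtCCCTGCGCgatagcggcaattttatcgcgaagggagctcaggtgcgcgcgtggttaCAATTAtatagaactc
ZK899.6, chrX:9465797-9465897, plus strand: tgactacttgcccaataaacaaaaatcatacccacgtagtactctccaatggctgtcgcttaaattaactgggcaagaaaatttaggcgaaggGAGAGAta
F55G7.5, chrX:11937496-11937596, plus strand: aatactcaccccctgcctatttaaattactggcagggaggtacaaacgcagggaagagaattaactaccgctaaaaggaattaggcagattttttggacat
K02D3.1, chrX:13700776-13700876, plus strand: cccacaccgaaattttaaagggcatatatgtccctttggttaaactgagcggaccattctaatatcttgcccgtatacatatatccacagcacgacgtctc

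The core appears in the nspc-17 and F20B6.9 windows as its reverse complement, and in the W02H3.3 window it is cut off by the edge. The windows of ZK899.6, F55G7.5 and K02D3.1 hold no exact match.

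Both replicates gave the strongest X peaks high values. The peak nearest W02H3.3, 4004 bp from that gene's start and outside any gene, had a pooled signal of 869, with 435 in replicate 1 and 441 in replicate 2. Its rank was 9 in the replicate 1 list and 4 in that of replicate 2. The peak 723 bp upstream of nspc-17, a gene of a nematode-specific peptide family, had a pooled signal of 856, with 411 and 451 in the replicates. These were close to each other in both libraries. The peak 1802 bp upstream of F20B6.9 had a pooled signal of 843, with 405 in replicate 1 and 435 in replicate 2. A summit in an intron of mom-1, which encodes a Porcupine-like protein needed for Wnt secretion, had a pooled signal of 723, with 405 in replicate 1 and 322 in replicate 2; its nearest start is that of cest-16. The peak 4868 bp upstream of xol-1, the master switch gene of sex determination, had a pooled signal of 661, with 344 in replicate 1 and 338 in replicate 2. Each of these had a value over 300 in both libraries.

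Weaker among the 20 were the peaks near puf-9, which encodes a Pumilio-family RNA-binding protein, at a pooled signal of 479, ins-39, an insulin-like peptide gene, at 426, col-185, a collagen gene, at 425, and trk-1, a gene of the Trk receptor family, at 424. The remaining named peaks lay nearest to ZK899.6 (771), F55G7.5 (707), K02D3.1 (706), Y41G9A.17 (698), F22H10.2 (686), gtr-1 (630), T27A8.7 (546), C41A3.2 (459), C53C7.3 (367) and fbxb-58, an F-box gene (363), in pooled signal. The C41A3.2 summit fell in a coding exon of pks-1, a polyketide synthase gene, and its nearest start was 15197 bp away. The widest gap between the replicates was at the peak 643 bp upstream of C34D10.5. It had a pooled signal of 456, with 435 in replicate 1 and 30.7 in replicate 2, where its rank was 6986, and the GC content of its window was 71.3%. Thus 19 of the 20 strongest X peaks were found in both replicates, that is, had a summit within 200 bp among the 1891 strongest peaks of each. Ranking by pooled signal favours this too. Of the 20, 13 lay in intergenic sequence outside promoters and 4 within 1000 bp of a gene start.

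**Figure D1:**
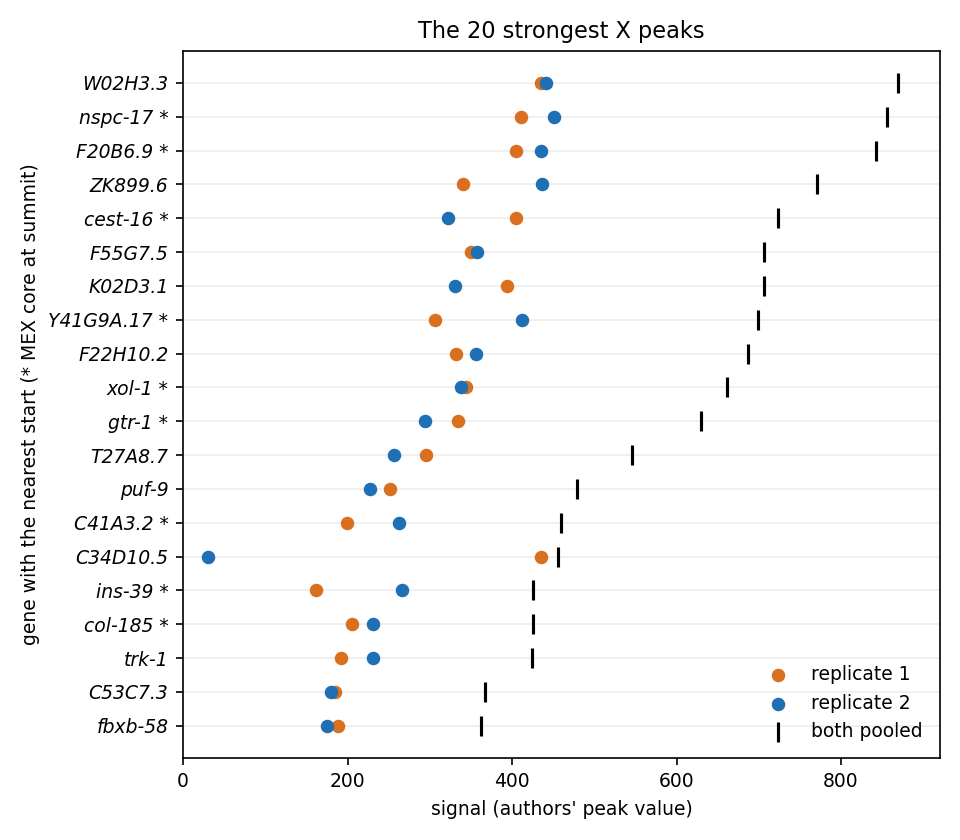
Signal of the 20 strongest X peaks, in authors' peak values on a linear axis, with 1 row per peak named by the gene with the nearest start. Orange and blue points are replicates 1 and 2, the black tick is the pooled list, and an asterisk marks the MEX core within 50 bp of the summit. The widest gap is at C34D10.5, with 435 against 30.7, and at ins-39 the values are 162 and 267.

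None of the 1475 autosomal summits had the core within 50 bp, and no X flank did. The flanks add up to the window's length and are centred 250 bp away, on both sides. A count of 0 of 1475 allows a share of up to 0.203%. The observed 2.64% on X (exact 95% binomial interval 1.33 to 4.68%) was 13.0-fold that limit. This ratio takes no account of the X interval and is not a lower bound. The odds ratio of X over autosomes had an exact lower 95% limit of 9.08. The difference from the autosomes had an adjusted p of 5.79e-07 (Fisher's exact two-sided test, adjusted over 11 motifs), and that from the flanks an adjusted p of 0.00269 (exact binomial test). Over all 101-bp windows tiled along the chromosomes, the core was in 0.0388% on X and in 0.0263% on the autosomes. The 11 peaks lie at 10 separate places, since a pair of peaks in Y41G9A.17, 202 bp apart, both matched the same replicate 2 peak. No other anti-GFP experiment was analysed here, so whether these X peaks are particular to CEH-8 was not tested. Intervals cover counting error only and take peaks as independent.

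The same relation was read from the motif's side, a measure added after the data were seen. The core occurs 81 times on X and 233 times on the autosomes. Of the X occurrences, 19 (23.5%) lay within 100 bp of an IDR summit, against 1 (0.429%) of the autosomal ones (Fisher's exact two-sided test, adjusted p = 1.67e-10 over 9 combinations of list and distance). Among the 1891 strongest peaks of replicate 1 alone the counts were 17 on X and 3 on the autosomes. Among those of replicate 2 alone they were 19 and 3. Most X occurrences had no IDR summit within that distance. The test takes occurrences as independent, though the W02H3.3, cest-16, xol-1 and gtr-1 peaks each hold a pair of them.

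**Figure D2:**
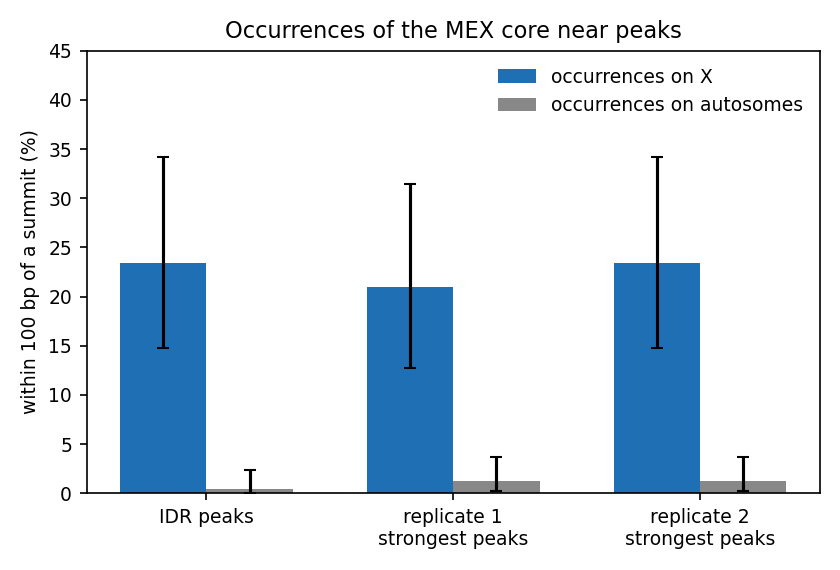
Share of the genome's occurrences of the MEX core that lie within 100 bp of a summit, in percent, for the IDR peaks and for the 1891 strongest peaks of each replicate. Bars are X (blue) and autosomes (grey), with exact 95% binomial intervals, and X reaches 23.5% against 0.429% in the IDR list.

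Looser forms of the core, also added after the data were seen, were also found at autosomal summits. Their p-values are adjusted over the 5 forms. The 7-letter form CGCAGGG lay at 16 X summits and 15 autosomal ones (adjusted exact p = 3.16e-04), and at 12 of the 20 strongest X peaks against 0 of the 20 strongest autosomal ones. With 1 mismatch allowed, the 8-letter core was at 40 X summits (9.62%) and 99 autosomal ones (6.71%), a difference that missed the threshold (adjusted exact p = 0.0549). That looser form was at 16 of the 20 strongest X peaks and at 2 of the 20 strongest autosomal ones. All 2080 6-base words, fixed with no list of motifs, were also searched. CCCTGC, which lies within the core, was at 29 X summits (6.97%) against 41 autosomal ones (2.78%; adjusted exact p = 0.0430). The core's other 6-base words, CCTGCG and CTGCGC, were not called between X and autosomes. CCTGCG was at 28 X summits (6.73%) against 56 autosomal ones (3.797%; adjusted exact p = 0.234). CTGCGC was at 32 X summits (7.69%) against 76 autosomal ones (5.15%; adjusted exact p = 0.427).

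X peaks lay farther from gene starts than autosomal peaks did. Their summits were a median of 1568 bp from the nearest protein-coding gene start, against 728 bp. Within 1000 bp of a start were 162 of 416 X peaks (38.9%) and 825 of 1475 autosomal ones (55.9%), with an odds ratio of 0.503 (95% interval 0.400 to 0.631; Fisher's exact two-sided test, adjusted p = 9.34e-09 over 8 features). Gene starts are themselves sparser on X, where 28.9% of all bases lie that close against 35.99% on the autosomes, and this share test takes no account of that. Positions spread evenly over the bases would differ in the same direction. Counted per base instead, a measure added after the data were seen, the density of X peaks was not told apart from that of autosomal ones within 1000 bp of a start, at 31.6 against 27.8 peaks per Mb (exact binomial test, adjusted p = 0.153 over 5 distances on both sides). The result near starts depended on the distance: within 200 bp X had 42.5 against 54.6 peaks per Mb (adjusted exact p = 0.147), within 2000 bp 27.2 against 21.7 (adjusted p = 0.00224) and within 5000 bp 23.8 against 18.9 (adjusted p = 2.50e-04). Farther than 1000 bp from a start they were denser on X, at 20.2 against 12.3 peaks per Mb (adjusted p = 3.90e-10), and beyond each of the other 4 distances X was denser too, with adjusted exact p-values up to 2.00e-04. Peaks per Mb also carry the higher number of peaks per base on X as a whole. The share of peaks over the share of bases within 1000 bp was 1.35 on X and 1.55 on the autosomes. Within 200 bp it was 1.81 and 3.06, and within 5000 bp 1.01 and 1.06. These ratios were not tested.

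**Figure D3:**
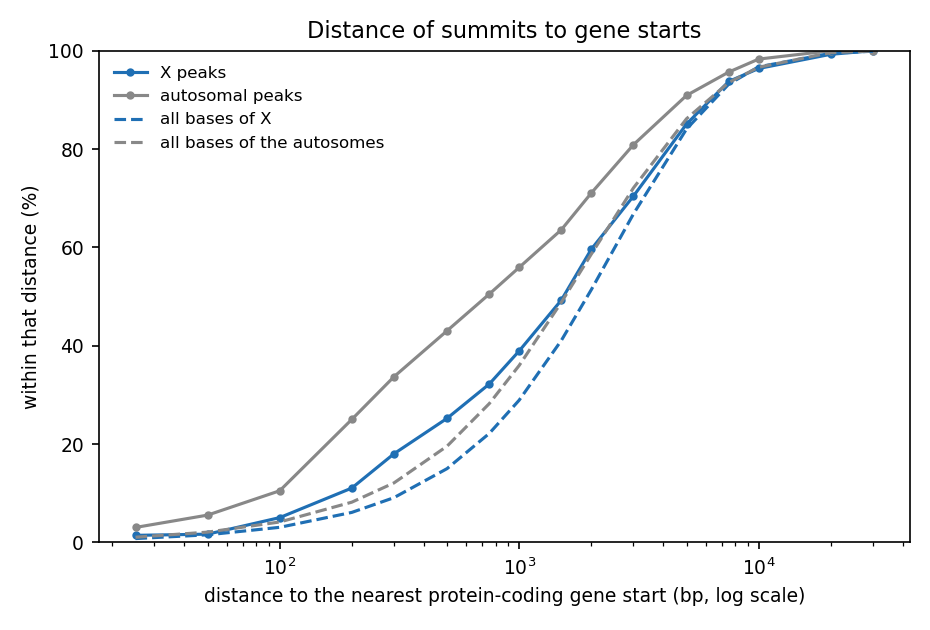
Cumulative share of summits, in percent, by distance to the nearest protein-coding gene start in bp on a log axis, for X (blue) and autosomal (grey) peaks, with dashed lines for all bases. At 1000 bp the curves stand at 38.9% and 55.9% of peaks and at 28.9% and 35.99% of bases.

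Genomic classes were compared in both ways. In promoters, the 1000 bp upstream of a start, lay 133 X peaks (32.0%) against 48.0% of autosomal peaks, and 150 (36.1%) lay in other intergenic sequence against 20.8% (Fisher's exact two-sided tests, adjusted p = 1.91e-08 and 3.81e-09 over 7 classes). Promoters cover 14.7% of X and 19.0% of the autosomes, and other intergenic sequence covers 31.2% and 22.9%. Per Mb of the class, promoters held 50.9 X peaks against 45.2 (ratio 1.13, 95% interval 0.929 to 1.36, adjusted exact p = 0.309). The promoter share of peaks over that of bases was 2.17 on X and 2.53 on the autosomes, a difference that was not tested. Other intergenic sequence held 27.1 against 16.2 per Mb (ratio 1.67, interval 1.37 to 2.04, adjusted exact p = 3.93e-06). Introns held 95 X peaks (22.8%) against 20.4% (adjusted exact p = 0.357). Per Mb they held 18.1 against 11.6 (ratio 1.56, interval 1.23 to 1.98, adjusted exact p = 9.29e-04). With replicate 2 left out the adjusted exact p for the intron density was 0.201, and for the stronger 50% of IDR peaks it was 0.435. Here too, peaks per Mb carry the higher number of peaks per base on X as a whole. Coding exons held 15 X peaks (3.61%) against 6.64% (adjusted exact p = 0.0335), and per Mb 4.54 against 5.36 (adjusted p = 0.694). That share lost its call in the stronger 50% of peaks (adjusted exact p = 0.968), in peaks found in both replicates (0.498) and without replicate 1 (0.764), and in these last 2 settings the difference changed sign, with no call. Non-coding RNA genes held 18 X peaks (4.33%) against 1.63% (adjusted exact p = 0.00497), and per Mb 85.5 against 41.0 (adjusted p = 0.0512). Its share lost the call in the stronger 50% of peaks (adjusted exact p = 0.0842), in peaks found in both replicates (0.213) and without replicate 2 (0.0507); 8 of the 18 were found in both replicates and 3 lay over tRNA genes.

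**Figure D4:**
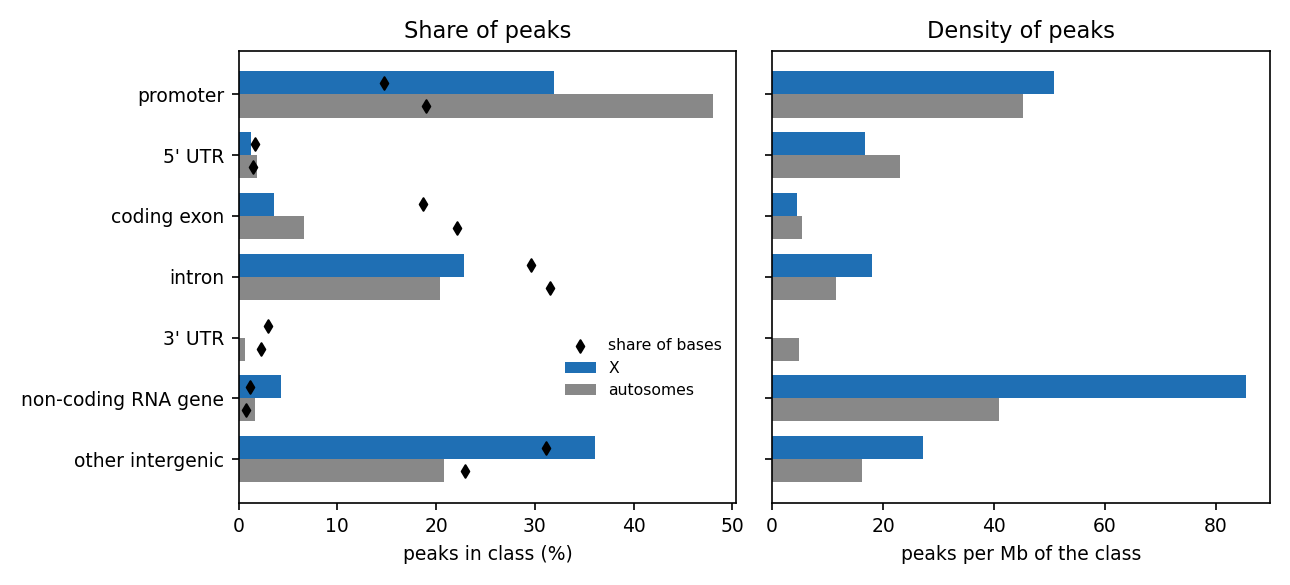
Share of peaks in each genomic class in percent (left, with diamonds for the share of bases) and peaks per Mb of that class (right), for X (blue) and the autosomes (grey). The promoter share differs, 32.0% against 48.0%, while promoter density is 50.9 against 45.2 per Mb and intergenic density 27.1 against 16.2.

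Homeodomain half-sites were unevenly placed. TAATTG was at 66 X summits (15.9%) and in 21 X flanks (5.05%; exact binomial test, adjusted p = 2.71e-06), but with replicate 2 left out this missed the threshold (adjusted p = 0.0705). Autosomal summits held it at 10.4%, less than X (odds ratio 1.62, interval 1.16 to 2.23, adjusted exact p = 0.0174), a call that was lost with replicate 2 left out (0.399) and in the peaks found in both replicates (0.163). Over all tiled windows TAATTG was in 8.92% on X and 7.99% on the autosomes, so the X flanks lay below the share over all X windows. In autosomal flanks it was at 8.68%, against 10.4% at autosomal summits, a contrast that was not tested. TAATTA was at 36 X summits and in 33 X flanks (adjusted exact p = 0.804). The palindrome of TAAT and ATTA 3 bases apart was at 6 X summits and in 0 flanks (adjusted exact p = 0.0573), and at 1.90% of autosomal summits against 1.44% on X (adjusted p = 0.745). The 4 strongest X peaks with this palindrome that overlap no exon are shown with it in capitals. Some other motifs matched are in capitals too. Not all are marked, and the K08B5.1 and K04G11.3 windows each hold a further match left in small letters.
T24D5.4, chrX:12595384-12595484, plus strand: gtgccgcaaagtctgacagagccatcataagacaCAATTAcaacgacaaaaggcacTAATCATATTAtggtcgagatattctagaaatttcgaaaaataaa
K08B5.1, chrX:16563456-16563556, plus strand: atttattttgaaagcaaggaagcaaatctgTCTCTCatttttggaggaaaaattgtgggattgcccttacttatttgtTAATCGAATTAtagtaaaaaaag
dyf-6, chrX:10387599-10387699, plus strand: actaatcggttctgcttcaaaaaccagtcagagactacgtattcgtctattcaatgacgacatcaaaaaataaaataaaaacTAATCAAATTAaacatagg
K04G11.3, chrX:14344819-14344919, plus strand: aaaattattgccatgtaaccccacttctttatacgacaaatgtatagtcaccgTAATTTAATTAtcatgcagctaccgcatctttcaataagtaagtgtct

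Their pooled signals were 257 near T24D5.4, 213 near K08B5.1, 177 near dyf-6, a gene of sensory cilia, and 174 near K04G11.3. All lay below the 20 strongest X peaks.

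GAGAGA was at 84 X summits (20.2%) and in 30 flanks (adjusted exact p = 1.05e-06), and at 21.97% of autosomal summits, with no difference called (adjusted p = 0.696). TTTTTTT was at 34 X summits and in 99 flanks (adjusted exact p = 9.21e-09). CCGCCC was at 20 X summits and in 7 flanks (adjusted exact p = 0.0322). That call was lost in the stronger 50% of IDR peaks and without peaks with repeated sequence. It was also lost with flanks lengthened to hold as many word positions as the window. TTGCGCAA was at 4 X summits and in 2 flanks. CAGCTG was at 14 and in 11. TGACTCA was at 9 and in 6. TGATAA was at 27 and in 39. These last 4 motifs passed neither the test against flanks nor that against the autosomes. Of 2080 words, 146 (7.02%) were more frequent at X summits than in flanks and 91 (4.38%) less frequent. Of the more frequent words 71.2% held at least 4 G or C, and of the 91 less frequent ones 88 held at most 2. Base composition thus moved with most of these words, and its part in them was not tested. Between X and autosomal summits 12 words (0.577%) differed, 3 of them higher on X. Besides CCCTGC these were CATTAG, at 9.62% against 3.53% (adjusted exact p = 0.00286), and GGACAC, at 7.21% against 2.92% (adjusted p = 0.0481). Lower on X were 9 words, among them GTACAC at 1.20% against 6.44% (adjusted exact p = 0.00286).

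The replicates were compared peak by peak. All but 14 X peaks had a peak within 200 bp in both 30000-peak lists, and over these 402 the Spearman correlation of the replicates' signals was 0.390, against 0.455 over 1362 autosomal peaks. The points share the same pair of libraries and were selected on pooled signal. In all, 245 X peaks (58.9%) were found in both replicates, against 57.8% of autosomal ones (adjusted exact p = 0.833). Peaks near the lower end of the list fall near each replicate's own limit by construction, so this share is not read against rank. A further 74 were strong in replicate 1 only and 86 in replicate 2 only. The median GC content of the window was 56.4% for those of replicate 1 only, 45.5% for peaks found in both and 43.6% for those of replicate 2 only. One of the replicate 1 set, 537 bp upstream of grk-1, which encodes a G protein-coupled receptor kinase, had a signal of 346 there, no replicate 2 peak and a GC content of 70.3%.

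**Figure D5:**
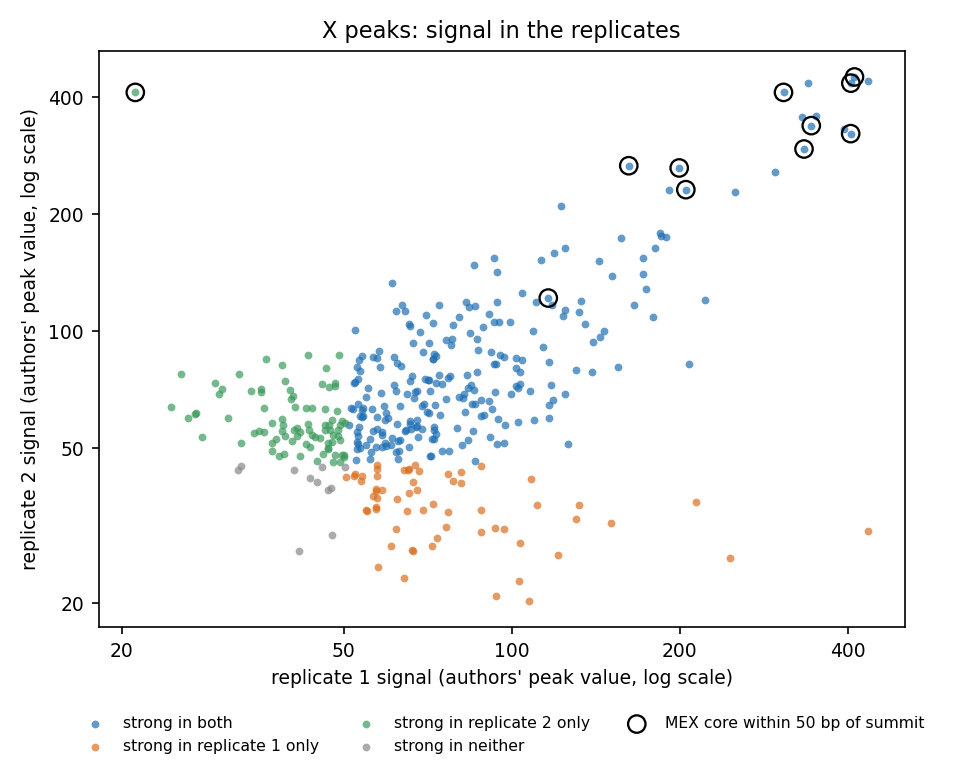
Signal of the 402 X peaks with a peak in both lists, replicate 1 against replicate 2, in authors' peak values on log axes, coloured by whether the peak is among the 1891 strongest of each replicate. Circles mark the 11 summits with the MEX core, 9 of them among the 20 strongest, and the circle at upper left is the second Y41G9A.17 peak.

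X peaks were also set beside genes. Each summit was assigned only to the protein-coding gene with the nearest start. Of 2731 X protein-coding genes, 158 (5.79%) were assigned a summit within 1000 bp of the start. A gene that close to a summit is not counted where another start is nearer. The list counts below were made in the same way and are read against that share. Sex determination and dosage compensation genes on X had 0 of 6. The nearest IDR summit to xol-1 was the one at 4868 bp. Other summits were nearest to the other 5 genes, at 2636 bp from ceh-39 and 4344 bp from fox-1, both counted among the X signal elements that repress xol-1, and 8003 bp from sex-1, a nuclear receptor of that group. The distances were 57257 bp for sdc-1 and 49257 bp for sdc-2, which act in loading the dosage compensation complex.

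Among factors, homeobox genes had 1 of 28 (ttx-3, which specifies the AIY interneuron, signal 149), nuclear hormone receptors 4 of 27 (nhr-1 at 181, nhr-255 at 174 and nhr-214 at 104.9 the strongest) and bHLH factors 1 of 10 (mdl-1, a Mad-like factor, 183). Neuropeptide genes had 3 of 34, namely ins-39 at 426, nlp-1 at 245 and flp-5 at 195. Chemoreceptors had 2 of 33 (srd-42 at 161 and srd-43 at 109), potassium channels 1 of 20 (kcnl-3 at 127), and acetylcholine receptor subunits 0 of 27, innexins 0 of 6 and DEG/ENaC channels 0 of 9. Synaptic genes had 2 of 4, syd-2, a liprin, at 102.1 and sad-1, a kinase, at 90.4. The only RIA gene of the list on X, the glutamate receptor gene glr-6, had a peak 55 bp from its start with a signal of 92.5. That was near the lowest X signal in the list, 88.1, and the peak's rank in replicate 2 was 4409. Cuticle collagens had 2 of 27 (col-176 at 187 and col-183 at 134, both in coding exons), ribosomal protein genes 1 of 2 (rpl-11.2 at 231) and muscle genes 1 of 11 (act-4 at 104.1); no germline gene of the list is on X. Most of these shares rest on fewer than 5 genes and none is read as different from 5.79%. The peaks of srd-43, syd-2, sad-1, glr-6, col-176 and col-183 were not found in both replicates.

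Of 74 X microRNA genes, 7 had an X summit within 1000 bp of the start. Here a gene counted whenever a summit lay that close, also where another start was nearer. The count is thus not comparable with the 5.79% of coding genes and is not read as a difference. Those of the mir-54, mir-55 and mir-56 cluster, with the overlapping antisense mir-55b, shared a pair of peaks, the stronger with a pooled signal of 206 and 109 and 100.3 in the replicates. With X cut into 10 equal stretches, each held between 30 and 50 peaks.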

How the data were processed

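The 4 deposited peak lists of 1 group of 2 replicates were used. Per the file headers, the authors set each replicate's alignment, and both together, against a control to make 3 lists, and drew the IDR list from those. The deposited signal of a peak is a score from the authors. Its scale, the IDR threshold, the aligner and the program that called peaks were not given in the sources used here. No result rests on the −log10 q column that the authors deposited. By signal, the IDR list equalled the top 1891 of the pooled list. Summits were set beside Ensembl release 115 genes and the WBcel235 sequence with Python 3.11.15, numpy 2.4.6, scipy 1.17.1 and pandas 2.3.3, with a threshold of 0.05 after Benjamini-Hochberg adjustment. Repeated sequence means that at least 50% of the 31-base words at a summit occur again in the genome. The genes named are those nearest the 20 strongest X peaks, up to 3 per list, and all X genes of sex determination. Members and lists were chosen with earlier results of these data known. Some tests were run on simulated data. The share near starts was called in 18 of 20 draws of positions spread evenly over bases. A per-base density scaled by the number of peaks on X and on the autosomes was called in 17 of 20 draws with equal shares near starts. The unscaled peaks per Mb tested in the Results were not simulated. Share and density answer different questions, and both are given. Densities, other forms of the core and its occurrences over the genome were added after the data were seen. The gene name tag-60 was not matched. Depth is unknown.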

Additional observations from a re-analysis of the deposited data

How the results depend on the processing

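Values are percentage points, X minus autosomes, unless named otherwise. The calls for the share near starts, the promoter and other intergenic shares, the intergenic density and GCGCAGGG held under every alternative run on each. The following differences changed sign or crossed the threshold in some settings. The share of GC-rich windows, -1.07 in the IDR list, was 0.44 in the stronger 50% of peaks, 0.71 in the pooled list extended to 2 times the IDR number, 1.37 in peaks found in both and 1.19 to 1.91 with 1 replicate left out. Repeats gave 0.43 to 0.54 with 1 replicate left out. The share with a neighbour, -0.26, was -6.07 in the stronger 50% (adjusted exact p = 0.0114), 0.22 in peaks found in both, 0.072 without peaks near ceh-8 and 2.94 for neighbours within 5000 bp. The share found in both ranged from 0.12 to 7.20 with 1 replicate left out, where the upper value passed (0.0273). Strong in replicate 2 only was -0.23 in the stronger 50%, and strong in neither was -1.96 in the extended list. Introns were -0.29 in the stronger 50%, -1.10 in the extended list and -0.096 to 0.26 with 1 replicate left out. Coding exons were -5.15 to 0.39 with 1 replicate left out and 0.52 in peaks found in both. TAATTA was -0.38 in 100-bp windows; the palindrome was 0.22 in peaks found in both and -0.55 to 0.10 with 1 replicate left out. TAATTG on X against autosomes missed the threshold at 6.49 in the stronger 50%, 5.29 in peaks found in both and 3.79 in 100-bp windows. With 1 replicate left out it was 2.10 to 5.66, and against flanks 4.69 to 10.9; in both comparisons the lower value, without replicate 2, missed the threshold and the upper passed. Log2 density ratios were -0.11 (promoter) and 0.37 (intron, not called) in the stronger 50%, 0.33 (promoter, called) in the extended list, and 0.36 to 0.50 (intron) with 1 replicate left out. CCGCCC against flanks lost its call in the stronger 50%, without peaks with repeated sequence and with lengthened flanks. Called classes were 2 in the stronger 50% and 2 in peaks found in both, against 4. Called motifs on X against autosomes were 1 in the stronger 50%, 1 in peaks found in both, 1 in 100-bp windows and 1 to 2 with 1 replicate left out, against 2. Words called against flanks were 56, 101 and 537 in those 3 settings and 124 to 225 with 1 replicate left out, against 237. Words called against autosomes were 7 in the stronger 50%, 73 in 100-bp windows and 5 to 7 with 1 replicate left out, against 12. The cause of these changes was not tested. No paired analysis was possible because there is 1 group. Peaks and motif occurrences are not replicates, so every p-value covers only counting error over them, taken as independent, within 1 experiment.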

Other observations

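Below the IDR list, the pooled list held 5238 weaker X peaks and 22871 weaker autosomal ones. The core GCGCAGGG lay within 50 bp of 5 of the X summits (0.0955%) and 4 of the autosomal ones (0.0175%; Fisher's exact two-sided test, p = 0.0145, unadjusted and added after the data were seen). The X share there was below the 2.64% of the 416 IDR peaks.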
